A study of Malus domestica with 6 samples.

Results

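The genes described here are 38 rows of a table of 1261 apple gene models, chosen because their annotation names membrane transport. A row entered through the E1-E2 ATPase domain (Pfam PF00122, 7 rows) or through any of 9 words in its description (31 rows), and 6 identifiers of cuticle-type ABC transporters were left out beforehand. The word transporter brought in 17 rows, carrier 8, channel 3, permease 2 and exchanger 1, while aquaporin, antiporter, MATE efflux and nodulin MtN21 found 0. Read against the descriptions, the label fits 32 of the 38 rows. Of the other 6, 5 name acyl carrier protein, a soluble cofactor protein of fatty acid synthesis, and 1 (FIP2) names a potassium channel tetramerisation domain, so these are described apart. The 38 rows have 34 distinct Arabidopsis matches, since 4 matches occur in 2 apple copies each.

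The table comes from RNA sequencing of the skin (exocarp) of apple, Malus domestica, picked in October 2012. The fully russeted group, whose fruit carries a corky skin in place of a waxy cuticle, held St Edmund Pippin, Reinette Parmentier and Patte de Loup. The fully waxy group held CRAW/Ma/AG94 (AG94 from here on), CRAW/Ma/AF42 (AF42) and Gala. Each variety gave 1 library and differs from the others in its whole genome, so the 3 varieties of a phenotype are its replicates, and skin type cannot be told apart from anything else that separates these 2 sets of varieties. The labels name no treatment, and fruit age is not given in them. Mapped reads ran from 9.44 M in Gala to 19.1 M in Reinette Parmentier. The authors listed only genes that passed a difference filter on these same libraries (absolute log2 fold change of at least 1, false discovery rate up to 0.200), so every row was already selected for differing between the phenotypes, and the counts below are read against the rest of the table. Levels are the deposited RPKM, reads per unit of coding length, scaled to the depth of each library.

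Plant cells move solutes with pumps, carriers and channels. Pumps such as P-type ATPases and proton pyrophosphatases spend chemical energy to carry ions across a membrane, and the proton gradients some of them build drive many carriers of phosphate, nitrate, amino acids and sugars. Channels let ions pass down their gradients, and mitochondrial and plastid carriers exchange metabolites between organelles and the cytosol. In fruit skin these proteins supply cells that build either a waxy cuticle or, in russet, a suberised cork (phellem) whose mature cells are dead.

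Of the 38 rows, 4 rose and 5 fell in russeted exocarp, and 29 did not pass the test. The 4 that rose are 3 P-type ATPases (AHA4, HMA5 and ECA1) and the mitochondrial amino acid carrier BAC2. The 5 that fell are an amino acid transporter, the phosphate transporter PHT1;7, the ammonium transporter AMT1;2, a nucleotide-sugar transporter and a mitochondrial carrier. The test was edgeR's quasi-likelihood test on total gene reads, two-sided, with mapped reads as library sizes and a Benjamini-Hochberg adjusted p under 0.05. All 9 are among the 32 described membrane transporters. In bulk tissue, a lower value can come from fewer cells of a type or from less RNA per cell, and these cannot be told apart.

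Against the table, the share of rows that rose was 10.5%, beside 19.2% of all 1246 tested genes. The share that fell was 13.2%, beside 9.31%. Over all 38 rows the median log2 fold change was 1.03, beside 1.19 over the tested genes, and 25 rows (65.8%) were above 0, beside 73.8%. In 30 rows the phenotypes did not overlap, with every russeted variety above every waxy one in 18 and below in 12. The table as a whole had 87.5% of its rows without overlap (63.1% higher, 24.3% lower), so 30 of 38 is not a result about transporters. An unadjusted edgeR p under 0.05 was found in 30 of the 38 rows, beside 80.7% of the tested genes. A Benjamini-Hochberg adjusted p between 0.05 and 0.1 was found in 6 rows by edgeR. The median of the mean level was 14.1 RPKM for the 38 rows and 10.02 for the tested genes.

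The scaling sets the balance of these calls. With TMM factors, which centre the table on most of its genes, log2 fold changes fell by 1.005 in the median and the tested genes' median went from 1.19 to 0.20. On that scale 0 of the 38 rows rose in edgeR (3 were higher at an unadjusted p under 0.05, and DESeq2 with its own size factors also called 0) and 13 fell, where 3.53% of tested genes rose and 23.8% fell, and the median of the 38 rows was -0.01. The 9 rows called with mapped reads kept their sign, and 8 rows that were above 0, none of them past the threshold, turned below 0. Listed genes held 4.71% to 5.26% of the mapped reads in russeted and 7.09% to 9.73% in waxy libraries.

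**Figure D1:**
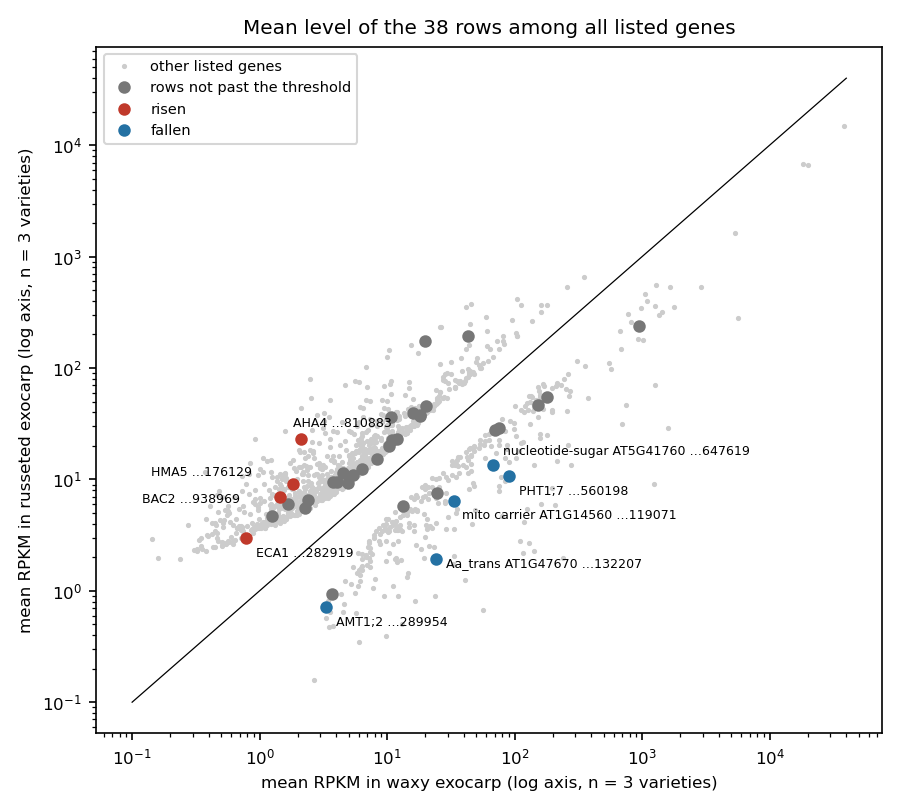
Mean RPKM of each row in russeted exocarp (vertical, log axis, n = 3 varieties) against waxy exocarp (horizontal, log axis, n = 3 varieties). Coloured points are the 38 rows by call with mapped reads as library sizes, grey points are the other listed genes, and the line marks equal levels. The 4 risen rows lie above the line and the 5 fallen rows below it, and with TMM factors none of the 4 is past the threshold while 13 rows are lower.

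Markers of other skin cell types were looked up in the same table, whose rows were already selected for differing between the phenotypes. Over its tested genes 19.2% rose and 9.31% fell with mapped reads, and 3.53% and 23.8% with TMM factors. Of 8 rows for phellem markers, 7 rose with mapped reads and 3 with TMM factors, and the summed level of the 8 was 107 to 446 RPKM in russeted and 97.5 to 239 RPKM in waxy varieties. KCS2 (MDP0000625646), the row that did not rise, pointed the other way and makes up most of the waxy sum. In AG94, AF42 and Gala it was at 201.28, 175.66 and 91.71 RPKM. The russeted values were 17.25, 52.43 and 83.58 RPKM in St Edmund Pippin, Reinette Parmentier and Patte de Loup. Its log2 fold change was -1.61 with mapped reads (edgeR adjusted p 0.182). With TMM factors it was -2.61 and KCS2 fell (0.0331). Without KCS2 the sums were 89.8 to 363 RPKM in russeted and 5.79 to 37.3 RPKM in waxy varieties. Of 11 rows for markers of cuticle-forming epidermis, 9 fell with mapped reads and 11 with TMM factors. Their summed levels were 112 to 383 RPKM in russeted and 1426 to 2531 RPKM in waxy varieties. CER3 (MDP0000165547), which did not pass with mapped reads (edgeR adjusted p 0.0766), had the highest level of the 11 in every variety. Its values ran from 50.52 to 293.34 RPKM in russeted and from 746.17 to 1502.66 RPKM in waxy varieties. Of 4 rows for phloem proteins, 2 rose, with sums of 50.3 to 102 RPKM against 15.0 to 30.6 RPKM. With TMM factors 0 of these phloem rows rose, and 0 rose when Patte de Loup or Reinette Parmentier was left out (1 when AG94 or Gala was). Rows for xylem, fibre and chlorophyll-bearing cell markers numbered 0, which in a table filtered for differences does not show whether such genes were expressed. No marker row was at 0 reads in any library. The part of these cell types in the transporter values was not tested.

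**Figure D2:**
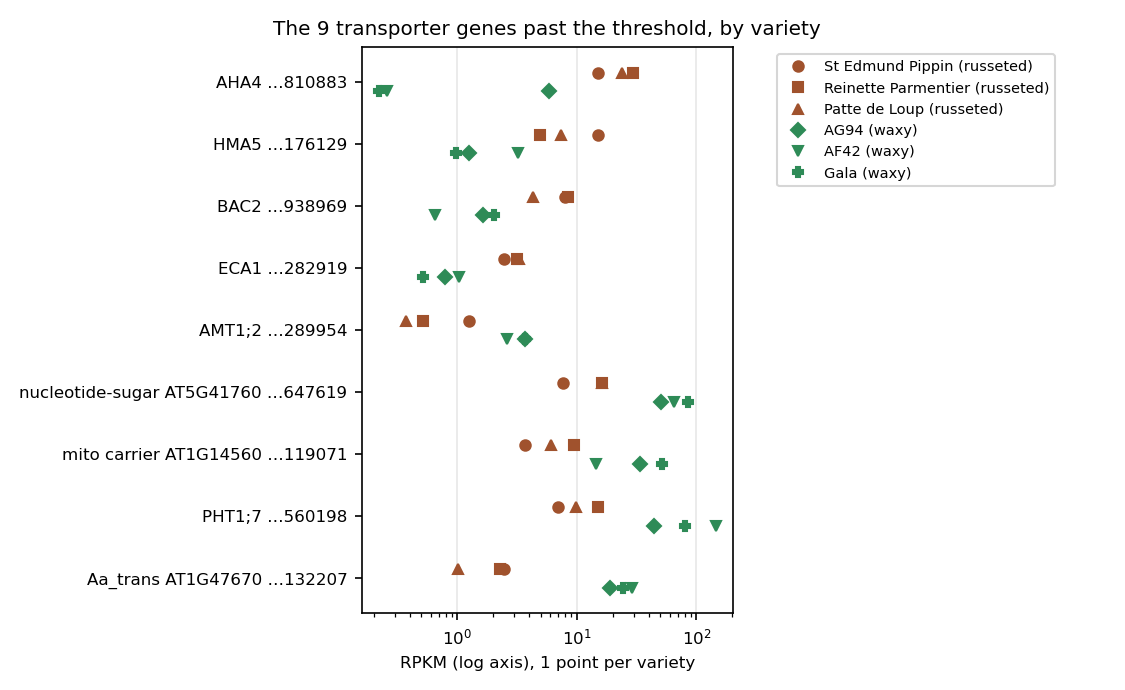
RPKM (horizontal, log axis) in each of the 6 varieties for the 9 rows past the threshold, 1 point per variety, russeted and waxy varieties in different colours. In all 9 rows the 3 russeted points lie on the same side of the 3 waxy points, and in AHA4 AG94 stands at 5.84 RPKM and the other waxy varieties at 0.26 and 0.22.

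Among the ATP-driven pumps, 7 rows carry the P-type ATPase domain, and all 7 were higher on average in russeted exocarp with mapped reads as library sizes. Of these, 3 rose, 0 fell and 4 did not pass, and none was lower at an unadjusted edgeR p under 0.05 or by DESeq2 or limma. The table as a whole had 19.2% of its tested genes risen and 73.8% above 0. The median log2 fold change of the 7 was 1.74, and 5 of the 7 had no overlap between phenotypes, where 87.5% of the table had none. With TMM factors 5 of the 7 were still above 0, at a median of 0.74, none was past the threshold, and the phospholipid flippase ALA3 and an unnamed E1-E2 ATPase were at -0.00316 and -0.09. The ALA3 model has a coding length of 789 bases, against 2820 to 3591 in the other P-type rows, and is annotated with the PF00122 domain alone.

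AHA4 (MDP0000810883), a plasma membrane proton pump by its Arabidopsis match, stood at 15.17 RPKM in St Edmund Pippin, 29.57 in Reinette Parmentier and 23.85 in Patte de Loup. The waxy varieties stood at 5.84 RPKM in AG94, at 0.26 in AF42 and at 0.22 in Gala. The russeted values are all above the waxy ones, but the waxy group is split between AG94 and the other two, which rest on 8 and 6 reads. Mean levels were 22.9 ± 7.25 RPKM (SD, n = 3) against 2.11 ± 3.23 (SD, n = 3), a log2 fold change of 3.41 ± 0.93 (SE; 95% interval 1.44 to 5.39) with an edgeR adjusted p of 0.0426. The adjusted p was 0.105 without St Edmund Pippin, 0.135 without Reinette Parmentier and 0.0843 without AF42, and 0.0573 on uniquely placed reads.

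HMA5 (MDP0000176129), a copper-exporting pump known from Arabidopsis roots, was at 14.97, 4.90 and 7.41 RPKM in St Edmund Pippin, Reinette Parmentier and Patte de Loup. In AG94, AF42 and Gala it was at 1.25, 3.25 and 0.98 RPKM. St Edmund Pippin was the highest, and the lowest russeted value still exceeded the highest waxy one. The means of 9.09 ± 5.24 and 1.83 ± 1.24 RPKM (SD, n = 3 each) gave a log2 fold change of 2.32 ± 0.60 (SE; 95% interval 1.05 to 3.58) and an edgeR adjusted p of 0.0316. The call was lost without St Edmund Pippin (adjusted p 0.156), AG94 (0.0979) or Gala (0.0896), and on uniquely placed reads (0.0545).

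ECA1 (MDP0000282919), a calcium and manganese pump of the endoplasmic reticulum in Arabidopsis, was low and even within each group. It stood at 2.45, 3.16 and 3.31 RPKM in St Edmund Pippin, Reinette Parmentier and Patte de Loup and at 0.79, 1.03 and 0.52 RPKM in AG94, AF42 and Gala. The groups did not overlap. The difference of 2.97 ± 0.459 against 0.780 ± 0.255 RPKM (SD, n = 3 each), a log2 fold change of 1.92 ± 0.53 (SE; 95% interval 0.79 to 3.05), passed narrowly with an edgeR adjusted p of 0.0463. It was past the threshold in none of the fits with 1 variety left out (adjusted p 0.0603 to 0.183), nor on uniquely placed reads (0.0682).

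HMA7 (MDP0000256469), also called RAN1 and known in Arabidopsis for delivering copper to ethylene receptors, was the most abundant P-type ATPase row. It was at 54.72, 19.51 and 33.89 RPKM in St Edmund Pippin, Reinette Parmentier and Patte de Loup and at 12.82, 12.51 and 6.97 RPKM in AG94, AF42 and Gala. No waxy value reached the lowest russeted value, but the spread among russeted varieties was wide, and the edgeR test did not pass (log2 fold change 1.74 ± 0.54 SE, 95% interval 0.59 to 2.89, adjusted p 0.0763). The 3 remaining rows were the calcium pump ACA9 (9.44 ± 1.93 against 4.02 ± 1.05 RPKM, SD, n = 3 each), ALA3 and the E1-E2 ATPase MDP0000310001, with edgeR adjusted p of 0.163 to 0.590. The E1-E2 ATPase was the only P-type row besides ALA3 with overlapping groups, since AF42 gave 14.52 RPKM against 14.02 in St Edmund Pippin.

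A further calcium pump of the table, ACA11 (MDP0000277068), lacks the domain annotation that defined the 7 rows and so is not among them. It went the other way, from 3.11, 2.95 and 4.21 RPKM in AG94, AF42 and Gala to 0.42, 1.24 and 0.78 RPKM in St Edmund Pippin, Reinette Parmentier and Patte de Loup. Its log2 fold change was -2.05 ± 0.56 (SE) with an edgeR adjusted p of 0.0435. Leaving out any 1 variety took that adjusted p above 0.05 (0.0539 to 0.156). The gene was chosen after its values were seen.

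Other proton pumps lie outside the rule because their descriptions say pyrophosphatase. The 3 copies of AVP1, the proton pyrophosphatase of the plant vacuole, were all higher on average in russeted exocarp, and 2 of them rose. MDP0000797360 went from 1.23 ± 0.866 to 11.6 ± 4.44 RPKM (SD, n = 3 each), with waxy values of 0.89, 0.58 and 2.21 and russeted values of 11.85, 7.07 and 15.94. Its log2 fold change was 3.26 ± 0.62 (SE), with an edgeR adjusted p of 0.00699 that stayed at or under 0.0280 in all 6 fits without 1 variety. MDP0000310686 was nearly level in waxy skin, at 1.55, 1.55 and 1.54 RPKM, and stood at 11.63, 4.43 and 8.01 RPKM in russeted skin (log2 fold change 2.37 ± 0.50 SE, edgeR adjusted p 0.0130, at most 0.0446 with a variety left out). The third copy, MDP0000022745, ranged from 6.14 to 23.65 RPKM in russeted and 1.56 to 6.30 RPKM in waxy varieties and did not pass (adjusted p 0.0561).

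Only 11.3% and 21.1% of the reads of the 2 risen AVP1 copies were placed uniquely, against 88.8% for the third, so how the reads divide between the copies is uncertain. With TMM factors their log2 fold changes were 2.16 and 1.34 and neither passed. The list of pump words that found them has 4 rows, of which the other is a dUTP pyrophosphatase that pumps nothing. The words for calcium sensing found 5 rows and those for vesicle traffic 7, and by edgeR with mapped reads 0 rows of either list passed. With TMM factors 1 row of each list was lower, the calcium-dependent kinase CPK33 (MDP0000304816, adjusted p 0.0155) and a Sec14p-like protein (MDP0000703737, 0.0096). At an unadjusted p under 0.05 the lists had 3 and 4 rows with mapped reads, and DESeq2 with mapped reads called 2 and 3 higher and 1 of each lower. Of 7 rows found by words for sugar supply, 1 rose, the sucrose-cleaving enzyme SUS4 (MDP0000250070), from 10.7 ± 1.43 to 76.5 ± 48.6 RPKM (SD, n = 3 each), edgeR adjusted p 0.0117 (0.0927 with TMM factors, not past). That list also holds 2 phosphofructokinases and 2 invertase or pectin methylesterase inhibitors caught by their wording.

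Potassium, sodium and organic cation transporters gave 4 rows, and none passed the edgeR test, though 3 had an unadjusted p under 0.05 and DESeq2 with mapped reads called 1 higher. Their log2 fold changes ran from -1.22 to 1.28 and 3 were above 0, of which NHX5, an endosomal sodium and potassium exchanger in Arabidopsis, was at -0.13 with TMM factors. The most abundant was ATOCT3 (MDP0000513157), an organic cation and carnitine transporter, at 63.13, 47.75 and 25.21 RPKM in St Edmund Pippin, Reinette Parmentier and Patte de Loup and 17.94, 16.82 and 25.33 RPKM in AG94, AF42 and Gala. Gala overlapped with Patte de Loup there, and the edgeR adjusted p was 0.246. A potassium transporter (MDP0000235333) was nearly constant in waxy skin, at 2.39, 2.26 and 2.14 RPKM, and rangier in russeted skin, at 3.44, 4.91 and 8.20 RPKM (log2 fold change 1.28 ± 0.51 SE, edgeR adjusted p 0.192). TPK5 (MDP0000415910), a vacuolar potassium channel, was the row that pointed down, at 5.75 ± 3.26 against 13.4 ± 3.67 RPKM (SD, n = 3 each). Its edgeR adjusted p was 0.257 with mapped reads and 0.0244 with TMM factors.

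Of the 2 anion rows, the phosphate transporter fell. PHT1;7 (MDP0000560198), a member of the phosphate uptake family that works with protons, stood at 43.85 RPKM in AG94, at 145.80 in AF42 and at 79.99 in Gala. Russeted skin gave 7.0 RPKM in St Edmund Pippin, 15.03 in Reinette Parmentier and 9.92 in Patte de Loup. The lowest waxy value is far above the highest russeted one, and in RPKM the scatter is mostly within the waxy group. As a ratio, the highest value was 3.32 times the lowest in waxy and 2.15 times in russeted varieties. Means of 10.7 ± 4.06 and 89.9 ± 51.7 RPKM (SD, n = 3 each) correspond to a level 8.44-fold higher in waxy skin. The log2 fold change was -3.08 ± 0.60 (SE; 95% interval -4.35 to -1.80) with an edgeR adjusted p of 0.0082. It was past the threshold without any 1 variety (adjusted p at most 0.0421, without St Edmund Pippin), with TMM factors (0.00445) and on uniquely placed reads (0.0106).

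The other anion row, a chloride channel (MDP0000891902), pointed up. It stood at 53.57, 31.97 and 32.45 RPKM in St Edmund Pippin, Reinette Parmentier and Patte de Loup and at 17.53, 14.77 and 15.90 RPKM in AG94, AF42 and Gala. Waxy varieties differed little among themselves, but the edgeR test did not pass (log2 fold change 1.29 ± 0.48 SE, adjusted p 0.156).

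Nitrogen and amino acid carriers made the largest group, 8 rows, and had no common direction. By edgeR 0 rose, 2 fell and 6 did not pass, with all 8 at an unadjusted p under 0.05 and DESeq2 with mapped reads calling 3 higher and 4 lower. They had 4 log2 fold changes above 0 and 4 below. With TMM factors 4 fell and 1 copy of AAP7 moved from 0.98 to -0.03. In 4 of the 8 rows under 50% of reads were placed uniquely.

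An amino acid transporter (MDP0000132207, Arabidopsis match AT1G47670) had the smallest p of the 38 rows. It stood at 19.11 RPKM in AG94, at 28.92 in AF42 and at 24.37 in Gala and at 2.48, 2.27 and 1.02 RPKM in St Edmund Pippin, Reinette Parmentier and Patte de Loup. The groups lie well apart, with every waxy value far above every russeted one. The mean was 1.92 ± 0.789 RPKM in russeted and 24.1 ± 4.91 RPKM in waxy skin (SD, n = 3 each), a log2 fold change of -3.65 ± 0.54 (SE; 95% interval -4.79 to -2.51) with an edgeR adjusted p of 0.00346. Of its reads 40.1% were placed uniquely, and on these alone the adjusted p was 0.00467. In the fits without 1 variety it stayed at or under 0.0149. A second row of the same family (MDP0000295182, AT3G56200) pointed the other way, at 9.39, 2.61 and 5.91 RPKM in russeted and 1.09, 0.55 and 3.35 RPKM in waxy varieties, without passing (log2 fold change 1.86 ± 0.68 SE, adjusted p 0.142, and 0.0269 without Gala).

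AMT1;2 (MDP0000289954), an ammonium transporter, was scarce throughout. It fell from 3.66, 2.59 and 3.70 RPKM in AG94, AF42 and Gala to 1.26, 0.52 and 0.37 RPKM in St Edmund Pippin, Reinette Parmentier and Patte de Loup. The russeted values rest on 20, 14 and 9 reads. Means of 0.717 ± 0.476 against 3.32 ± 0.630 RPKM (SD, n = 3 each) gave a log2 fold change of -2.24 ± 0.56 (SE; 95% interval -3.43 to -1.05) and an edgeR adjusted p of 0.0276. Without Reinette Parmentier or Patte de Loup the adjusted p was 0.156 and 0.183.

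NRT2.7 (MDP0000131368), a nitrate transporter of the vacuole in Arabidopsis seeds, had the highest russeted mean of the 32 transporters. It stood at 164.82 RPKM in St Edmund Pippin, 304.68 in Reinette Parmentier and 107.09 in Patte de Loup, and at 28.28, 77.79 and 23.16 RPKM in AG94, AF42 and Gala. The groups did not overlap, and Reinette Parmentier and AF42 were high within their groups. The mean level was 192 ± 102 against 43.1 ± 30.2 RPKM (SD, n = 3 each), and the log2 fold change of 2.16 ± 0.65 (SE; 95% interval 0.79 to 3.52) did not pass (edgeR adjusted p 0.0632). Without AF42 it passed, at 0.0272.

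AAT1, a carrier of basic amino acids, was present in 2 copies, both lower on average in russeted skin. MDP0000157113, the most abundant row of the group, stood at 42.98, 75.62 and 47.00 RPKM in St Edmund Pippin, Reinette Parmentier and Patte de Loup and at 242.39, 99.02 and 201.26 RPKM in AG94, AF42 and Gala. MDP0000162579 stood at 35.80, 28.54 and 19.27 RPKM in the russeted and 72.94, 49.15 and 87.83 RPKM in the waxy varieties. In both copies AF42 was the lowest of the waxy varieties, and the groups did not overlap. The log2 fold changes of -1.71 ± 0.59 and -1.33 ± 0.52 (SE) had edgeR adjusted p of 0.113 and 0.179, and with TMM factors 0.0218 and 0.0212. The 2 copies of the amino acid permease AAP7 were higher on average with mapped reads, at log2 fold changes of 0.98 and 1.34 and adjusted p of 0.320 and 0.163, with 34.6% and 30.8% of reads placed uniquely.

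Of the 3 sugar rows, 1 fell. It is a nucleotide-sugar transporter (MDP0000647619, AT5G41760), of a family that carries activated sugars into the Golgi apparatus and endoplasmic reticulum. It stood at 50.93 RPKM in AG94, at 65.48 in AF42 and at 85.39 in Gala and at 7.62, 16.29 and 16.36 RPKM in St Edmund Pippin, Reinette Parmentier and Patte de Loup. Every waxy value was above every russeted one, and 99.8% of its reads were placed uniquely. The mean was 13.4 ± 5.03 against 67.3 ± 17.3 RPKM (SD, n = 3 each), 5.01-fold higher in waxy skin, with a log2 fold change of -2.32 ± 0.52 (SE; 95% interval -3.41 to -1.23) and an edgeR adjusted p of 0.0149. Without St Edmund Pippin the adjusted p was 0.0537.

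The other sugar rows did not pass with mapped reads. A second nucleotide and sugar transporter row (MDP0000389171, AT5G55950) pointed the same way at a much lower level, 1.48, 0.61 and 0.70 RPKM in russeted and 2.19, 4.84 and 4.09 RPKM in waxy varieties. Its edgeR adjusted p was 0.0542, 0.0346 without AG94 and 0.0082 with TMM factors, and 15.6% of its reads were placed uniquely. STP7 (MDP0000192591), of the monosaccharide carrier family, was at 37.6 ± 10.8 against 18.2 ± 13.6 RPKM (SD, n = 3 each). Gala, at 33.67 RPKM, overlapped with Patte de Loup at 25.77, and 5.93% of the reads were placed uniquely (edgeR adjusted p 0.441, log2 fold change 1.05 with mapped reads and -0.02 with TMM factors).

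The mitochondrial carrier domain (PF00153) is found in 4 rows, of which 1 rose, 1 fell and 2 did not pass. In the 3 described here under 50% of reads were placed uniquely, and the fourth, ADNT1, with 98.3%, is given with the other substrates. BAC2 (MDP0000938969), a mitochondrial carrier of basic amino acids such as arginine, was at 7.99, 8.50 and 4.31 RPKM in St Edmund Pippin, Reinette Parmentier and Patte de Loup and at 1.64, 0.65 and 2.03 RPKM in AG94, AF42 and Gala. The waxy values rest on 20, 5 and 14 reads, and none reaches the russeted range. Means of 6.93 ± 2.29 and 1.44 ± 0.711 RPKM (SD, n = 3 each) gave a log2 fold change of 2.25 ± 0.57 (SE; 95% interval 1.05 to 3.46) and an edgeR adjusted p of 0.0283. On uniquely placed reads the log2 fold change was 3.22 and the adjusted p 0.0104. Without St Edmund Pippin, Reinette Parmentier, AG94 or AF42 the adjusted p was 0.0915, 0.0989, 0.0596 and 0.106.

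The mitochondrial carrier that fell (MDP0000119071, AT1G14560) stood at 33.84 RPKM in AG94, at 14.41 in AF42 and at 51.42 in Gala and at 3.69, 9.51 and 6.11 RPKM in St Edmund Pippin, Reinette Parmentier and Patte de Loup. AF42 came nearest to the russeted range. The log2 fold change was -2.36 ± 0.57 (SE; 95% interval -3.56 to -1.16), from means of 6.44 ± 2.92 and 33.2 ± 18.5 RPKM (SD, n = 3 each), with an edgeR adjusted p of 0.0218. It was 0.102 without St Edmund Pippin, 0.0756 without Patte de Loup and 0.0789 without Gala. The second copy (MDP0000137441) had the same order in waxy skin, at 21.99, 14.80 and 36.82 RPKM in AG94, AF42 and Gala, against 7.23, 8.75 and 6.76 RPKM in the russeted varieties, and did not pass (log2 fold change -1.69 ± 0.50 SE, adjusted p 0.0589; 0.0366 without AF42).

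The last transporters were 4 rows of other substrates and 1 ABC transporter, all above 0 with mapped reads and none past the edgeR threshold. An unadjusted p under 0.05 was found for 1 of the 4 and for the ABC transporter, and DESeq2 with mapped reads called 1 of the 4. DiT1 (MDP0000665532), a plastid dicarboxylate carrier, had the smallest p among them, at 6.30, 3.70 and 4.20 RPKM in russeted and 0.24, 1.55 and 1.98 RPKM in waxy varieties (log2 fold change 1.95 ± 0.65 SE, edgeR adjusted p 0.103). AG94 gave 5 reads there. ADNT1 (MDP0000319258), a mitochondrial adenine nucleotide carrier, was at 22.97, 16.68 and 29.77 RPKM against 12.59, 13.14 and 9.94 RPKM, and the vacuolar malate carrier TDT (MDP0000307325) at 20.21, 27.88 and 19.58 RPKM against 12.75, 5.58 and 14.64 RPKM. Neither passed (edgeR adjusted p 0.334 and 0.337), nor did a choline transporter (MDP0000179751, 0.330). With TMM factors the log2 fold changes of ADNT1, the choline transporter and TDT were -0.06, -0.05 and -0.00751. The ABC-2 type transporter (MDP0000942052) was at 5.20, 10.34 and 12.90 RPKM against 3.73, 5.53 and 2.05 RPKM, with St Edmund Pippin inside the waxy range (adjusted p 0.240).

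**Figure D3:**
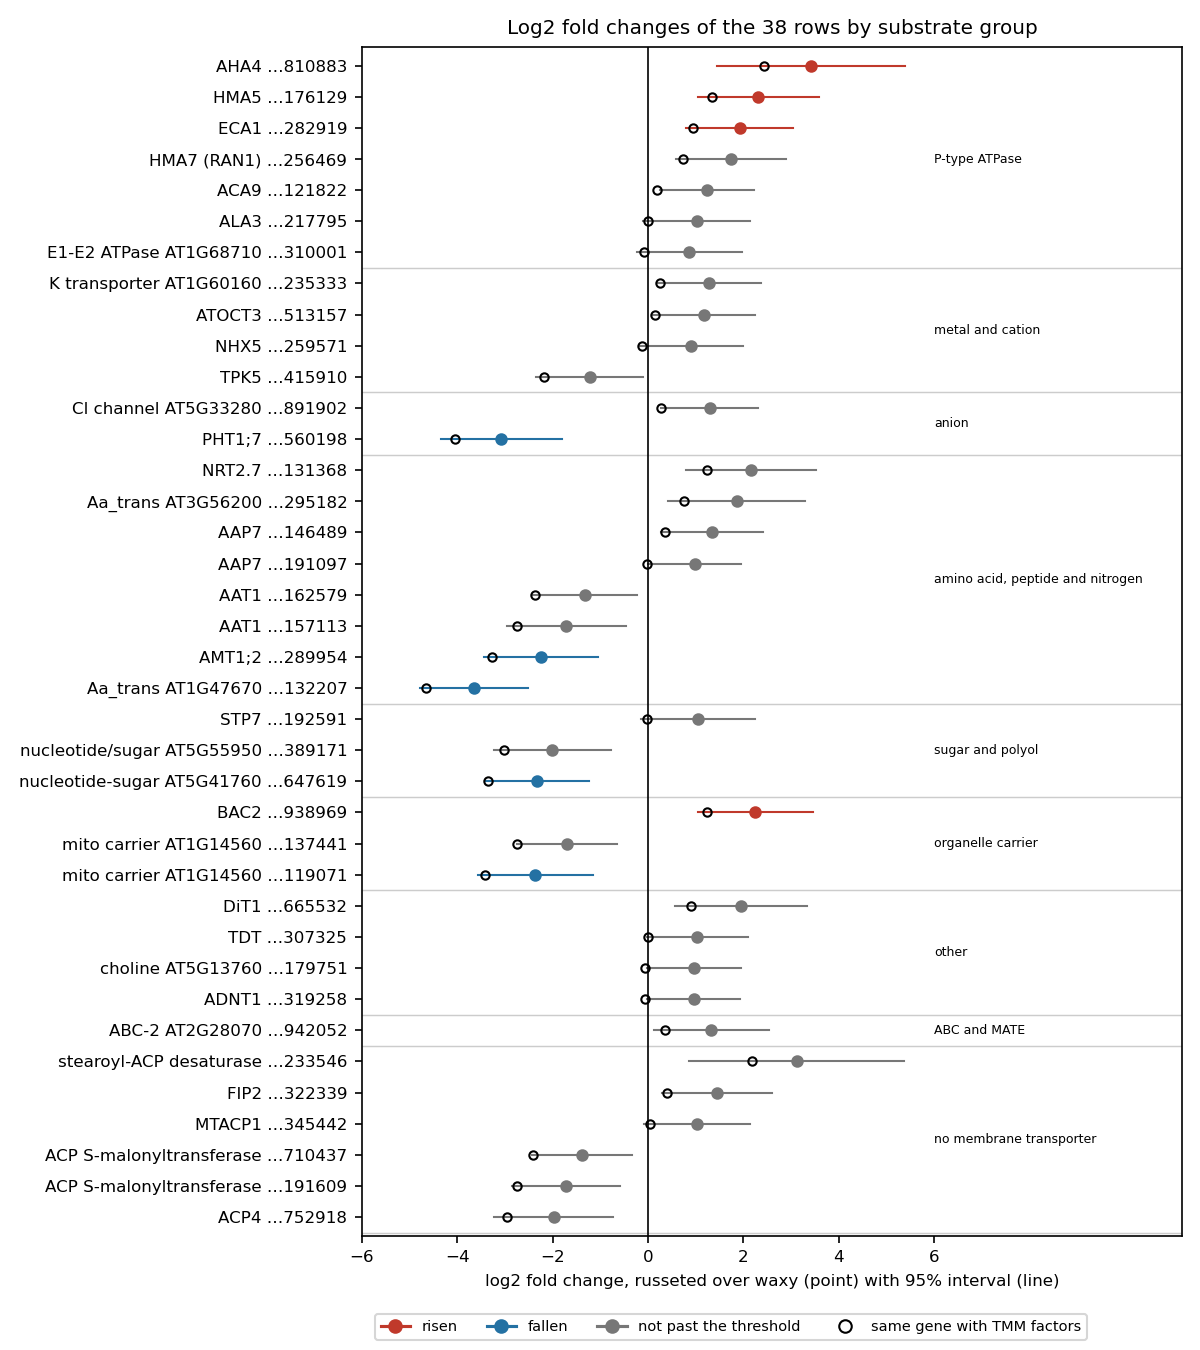
Log2 fold change of each of the 38 rows, russeted over waxy (horizontal), grouped by substrate, with its 95% interval as a line (edgeR, n = 3 varieties each). Filled points use mapped reads as library sizes and open circles TMM factors. The P-type ATPases are all above 0 with mapped reads and 5 of 7 with TMM factors. With mapped reads the 4 rows of other substrates are also all above 0, as are 73.8% of all tested genes. The nitrogen and amino acid rows fall on both sides of 0.

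The 6 rows that name no membrane transporter had 0 calls by edgeR with mapped reads, 3 above 0 and 3 below, with 5 at an unadjusted p under 0.05. DESeq2 with mapped reads called 1 higher and 3 lower. The 3 below 0 belong to plastid fatty acid synthesis. ACP4 (MDP0000752918), an acyl carrier protein and the most abundant of all 38 rows, was at 163.89, 323.51 and 232.23 RPKM in St Edmund Pippin, Reinette Parmentier and Patte de Loup and at 659.01, 1329.21 and 846.53 RPKM in AG94, AF42 and Gala. The waxy levels were all higher, with an edgeR adjusted p of 0.0632 and 6.63% of reads placed uniquely. The 2 copies of the malonyl transferase that loads acyl carrier protein were at log2 fold changes of -1.72 and -1.38 (adjusted p 0.0742 and 0.136). With TMM factors these 3 rows passed, at adjusted p of 0.0138, 0.0131 and 0.0164.

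The stearoyl-acyl carrier protein desaturase (MDP0000233546), which puts a double bond into the chain, varied most among varieties. It was at 285.92, 36.50 and 197.22 RPKM in St Edmund Pippin, Reinette Parmentier and Patte de Loup and at 16.02, 43.26 and 0.27 RPKM in AG94, AF42 and Gala. AF42 exceeded Reinette Parmentier, Gala rests on 3 reads, and the test did not pass (log2 fold change 3.12 ± 1.07 SE, edgeR adjusted p 0.111, and 0.0488 without AF42). FIP2 and the mitochondrial acyl carrier protein MTACP1 were at log2 fold changes of 1.45 and 1.03 (adjusted p 0.153 and 0.383).

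Within a phenotype the rows differed by variety about as much as the table did. The median SD of log2 level was 0.49 in russeted and 0.61 in waxy varieties for the 38 rows, and 0.53 and 0.59 for the tested genes. The highest russeted level was in St Edmund Pippin for 14 rows, Reinette Parmentier for 13 and Patte de Loup for 11. Among waxy varieties it was in AF42 for 16 rows, Gala for 15 and AG94 for 7. Gala led in 39.5% of the 38 rows and 22.6% of the tested genes and AG94 in 18.4% and 34.7%, shares that were not tested against each other. Copies with the same Arabidopsis match may share reads, so their rows are not counted as independent; sharing between them was not measured.

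**Figure D4:**
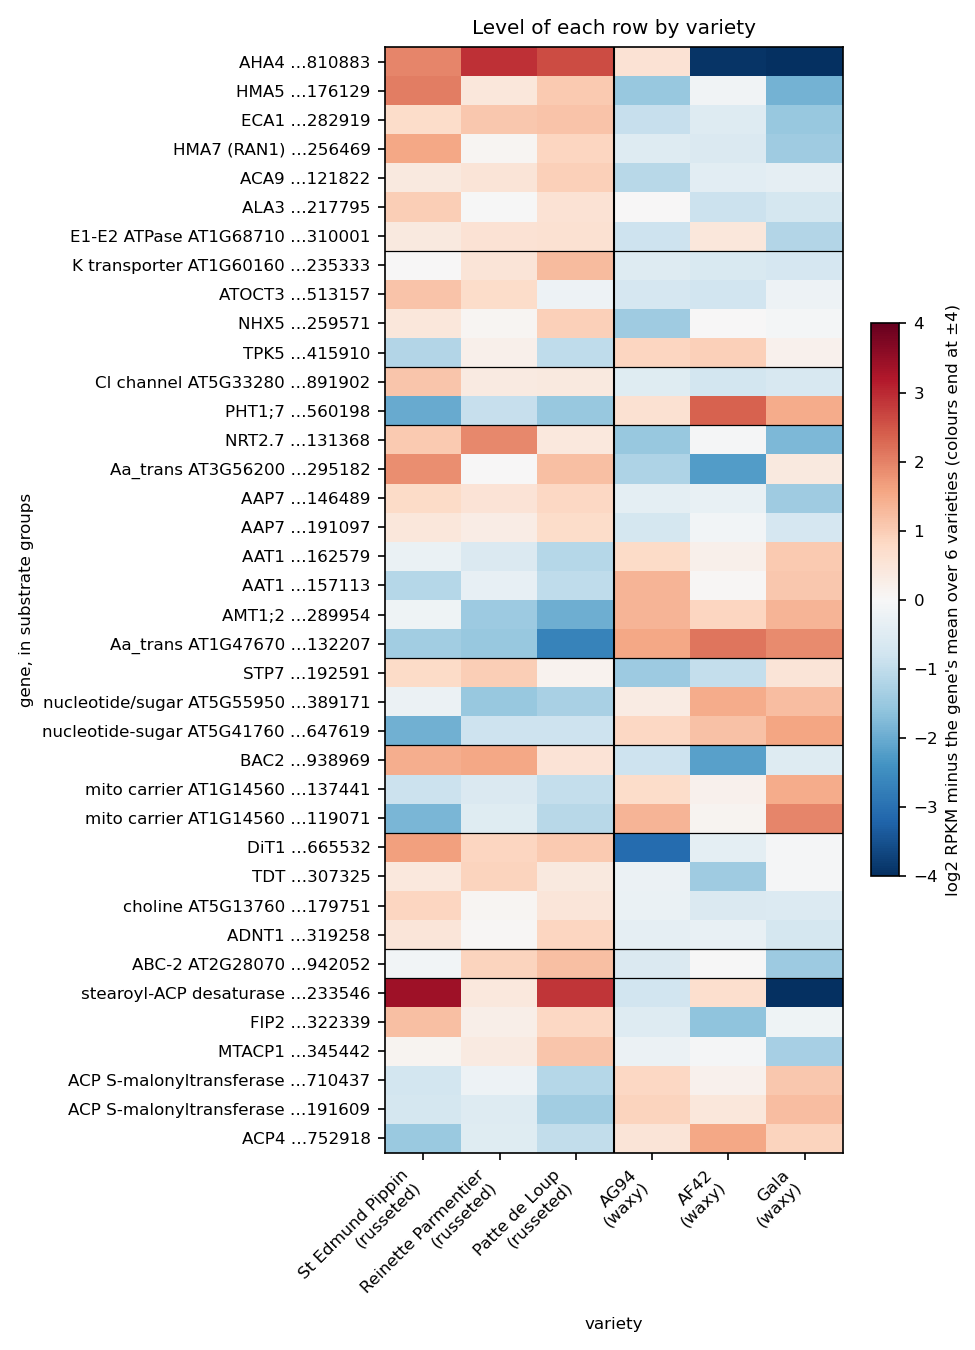
Level of each of the 38 rows (vertical, by substrate group) in each variety (horizontal), as log2 RPKM minus the row's mean over the 6 varieties. Red is above and blue below that mean, and the black line separates russeted from waxy varieties. ECA1 and the amino acid transporter MDP0000132207 keep 1 colour on each side of the line. In AHA4 AG94, and in the desaturase AF42, is above the row's mean while the other waxy varieties are below it. Gala, at 0.27 RPKM, is by far the lowest in the desaturase row.

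The calls rest on few varieties. Of the 9 called rows, 2 (the amino acid transporter MDP0000132207 and PHT1;7) were past the threshold in all 6 fits with 1 variety left out. The table was filtered on all 6 libraries, so a left-out variety had still helped to choose the rows. Leaving out St Edmund Pippin ended 6 of the 9 calls and leaving out Reinette Parmentier 4. Leaving out Patte de Loup, AG94, AF42 or Gala ended 3 each. The rows called higher numbered 0 to 3 over these 6 fits and the rows called lower 3 to 6.

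**Figure D5:**
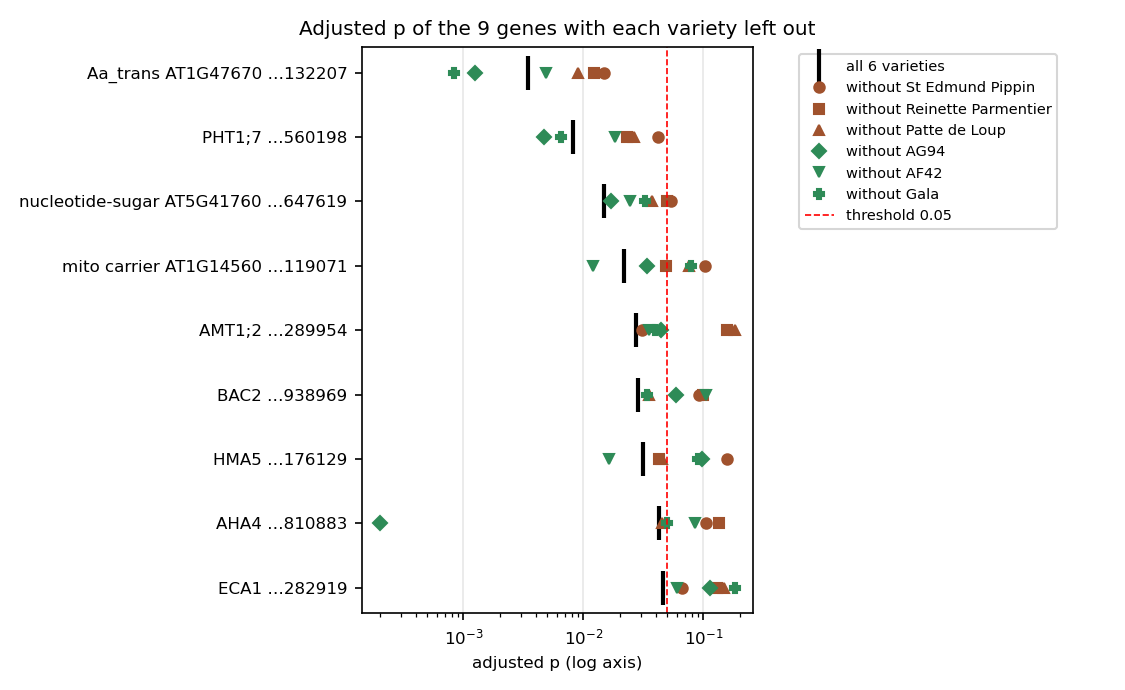
Adjusted p (edgeR, horizontal log axis) of the 9 rows past the threshold, with all 6 varieties (black bar) and with each variety left out (1 point per variety). The dashed line is the threshold of 0.05. The amino acid transporter MDP0000132207 and PHT1;7 stay to the left of it in all fits, and ECA1 lies to the right of it in every fit without 1 variety.

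In the authors' deposited table, 13 of the 38 rows had a false discovery rate under 0.05 by Baggerley's test, 7 higher and 6 lower in russeted exocarp, beside 25.1% and 10.8% of all listed rows. Both tests called 4 rows, which is 44.4% of the 9 called by edgeR and 30.8% of the 13 in the authors' deposited table. No row had opposite signs. Both tests used the same libraries, and rows were listed for an absolute log2 fold change of at least 1, so matching signs add no support. AHA4, the amino acid transporter MDP0000132207, BAC2 and the nucleotide-sugar transporter MDP0000647619 are the shared rows, with rates of 0.000487, 1.61e-10, 0.0164 and 5.19e-06 in the authors' deposited table. PHT1;7, called by edgeR in all 6 fits with 1 variety left out, has a rate of 0.0844 there.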

How the data were processed

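The authors deposited total and unique gene read counts, RPKM values, per-phenotype mean RPKM, a signed fold change (a score), its log2, and Baggerley's test with its p-value and false discovery rate, from CLC Genomics Workbench 6.5 per the file headers. Unique counts were never above total counts, and how reads that match several genes entered the totals is not stated. The share placed uniquely is unique over total reads, summed over the 6 libraries. A genome build or aligner was not given in the sources used here, and whether these TruSeq libraries mark strand was not established. Coding lengths, all multiples of 3, hold no UTRs. Genes keep the names of the table's Arabidopsis matches (24 of the 38 have a symbol), and 0 identifiers matched the RefSeq table.

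Mapped reads per library were recovered from reads, length and RPKM (median over genes with at least 200 reads). Total counts were fitted with edgeR 4.0.16 in R 4.3.3 over all 6 libraries after its low-count filter (1246 of 1261 genes), with a common biological coefficient of variation of 0.481. P-values were adjusted over 6449 genes, the number by which the deposited false discovery rate follows from its p, and unlisted genes, not analysed here, were taken to have larger p. The table was filtered on these libraries, so fold changes are selected ones. SE is the log2 fold change over the root of F. The code was tested on simulated data with less spread between libraries and with rises and falls equally likely. That test therefore does not cover a preselected, unbalanced table such as this one. Alternatives used limma 3.58.1 and DESeq2 1.42.0.

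Members and lists were chosen with earlier results of these data known. Named with values by rule were called rows, each substrate group's most abundant row and smallest p, and copies of these (19 rows); others were named after their values were seen. Of the 38 rows, 14 had under 50% unique reads and 7 had 10 or fewer reads in some library. Library medians were 54 to 219 reads per listed gene. The labels do not mention repeat fruit lots, so p-values measure the spread between varieties.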

Additional observations from a re-analysis of the deposited data

How the results depend on the processing

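Over 38 genes and 14 settings, 434 of 531 log2 fold changes kept direction and side of the threshold. A further 39 fell short of it, 42 moved past it and 16 changed sign. Rows higher (4) and lower (5) became 0 and 13 with TMM factors, 0 and 13 with DESeq2 and its own size factors, 12 and 12 with DESeq2 and mapped reads, and 16 and 13 with adjustment over the tested genes alone. On log2(RPKM + 0.1) with limma 2 rose, and on unique reads 1 rose. Among rows with at least 50% unique reads, an alternative chosen after seeing the data, 3 fell. Without 1 variety the ranges were 0 to 3 higher and 3 to 6 lower. Over all tested genes, 239 higher and 116 lower became 44 and 296 (TMM), 114 and 320 (DESeq2, own factors), 540 and 265 (DESeq2, mapped reads), 597 and 290 (tested genes alone) and 157 higher (limma, 0.1), and without 1 variety 134 to 194 higher and 67 to 105 lower. TMM and DESeq2's own factors centre this preselected table, which by construction shifts its fold changes down.

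Signs changed under TMM and under DESeq2's own factors in 8 rows: the E1-E2 ATPase MDP0000310001 (-0.0910, -0.100), NHX5 (-0.132, -0.153), ADNT1 (-0.0605, -0.0820), AAP7 MDP0000191097 (-0.0293, -0.0460), the choline transporter (-0.0535, -0.0724), ALA3 (-0.00316, -0.0261), TDT (-0.00751, -0.0306) and STP7 (-0.0217, -0.0452). None was past the threshold in either. Replicate numbers only number the varieties. Deviations of log2 level from each phenotype's mean were correlated between russeted and waxy libraries. Same-numbered libraries gave -0.07, -0.01 and -0.08, and the other pairs -7.43e-05 to 0.0778, so no pairing was found. With the replicate block 4 rows were higher and 5 lower, with ECA1 out (adjusted p 0.0810) and NRT2.7 in (0.0478), and over all tested genes 209 and 110. Low counts limit AHA4, BAC2 and AMT1;2, whose lowest libraries hold 6, 5 and 9 reads.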

Other observations

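A further 18 rows of the table carry a transport-related Pfam domain but none of the words used to choose the 38, and were looked up after values had been seen. Not every one is described as a membrane transporter. They include GCN4 (MDP0000211616), described as general control non-repressible, and NAP9, NAP11 and NAP14, described as non-intrinsic ABC proteins. By edgeR with mapped reads 1 of the 18 rose and 4 fell, where 19.2% of all tested genes rose and 9.31% fell. With TMM factors 0 rose and 6 fell, where 3.53% and 23.8% of tested genes did. DESeq2 with mapped reads called 5 higher and 6 lower. The aquaporin PIP2;8 (MDP0000142957), a water channel of the plasma membrane, stood at 44.32, 28.73 and 99.86 RPKM in St Edmund Pippin, Reinette Parmentier and Patte de Loup and at 17.49, 13.48 and 10.58 RPKM in AG94, AF42 and Gala. Its log2 fold change was 2.05 ± 0.55 (SE, edgeR adjusted p 0.0373), and the adjusted p was 0.268 without Patte de Loup. A second copy (MDP0000315176), with 19.1% of reads placed uniquely, was at a log2 fold change of 1.42 (adjusted p 0.135). With TMM factors neither passed, at 1.02 and 0.36.

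Among the 4 that fell with mapped reads are the P-glycoproteins PGP2 and PGP13, ABC transporters of the family that includes auxin carriers in Arabidopsis. PGP2 (MDP0000286528) was at 0.82, 3.06 and 1.31 RPKM in the russeted and 29.9, 56.04 and 11.89 RPKM in the waxy varieties, a log2 fold change of -4.23 ± 0.71 (SE, edgeR adjusted p 0.00393), and stayed at or under 0.0286 without any 1 variety. PGP13 (MDP0000124006) was at 0.14, 2.23 and 0.34 RPKM in the russeted and 11.89, 13.77 and 2.55 RPKM in the waxy varieties (log2 fold change -3.35, adjusted p 0.0279, and 0.119 without St Edmund Pippin). The ABC protein NAP14 (MDP0000219021) was lower by a log2 fold change of -2.10 (adjusted p 0.0442, and 0.185 without Patte de Loup). The fourth is the calcium pump ACA11. All 4 were also lower with TMM factors. On that scale the ABC proteins NAP11 (MDP0000187150, edgeR adjusted p 0.0163) and NAP9 (MDP0000802806, 0.0160) fell too.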
